A study of Bos taurus with 38 samples.

Results

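The transcripts of 10 cattle oocytes were set against those of the cumulus cells that had surrounded each of them, in the 10 BCB negative complexes numbered 6, 65, 66, 68 and 86 to 91. These complexes gave 20 of the 38 libraries of the series, and they were chosen by their label alone. Brilliant cresyl blue (BCB) is a dye for living oocytes, and a BCB negative oocyte lost the blue colour of its cytoplasm, which is taken to mark an oocyte still in growth. The other 9 complexes were BCB positive and enter only the last comparison. All complexes came from Bos taurus ovaries of an abattoir and were stained, so that both compartments carry the same exposure to the dye. Each oocyte is 1 cell, parted from its cumulus by trypsin and pipetting, whereas each cumulus sample is a pool of cells of unstated number. No label ties a complex to an animal, so some complexes may share one, and the p-values measure the spread between complexes.

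The oocyte grows inside a coat of cumulus cells that pass it metabolites and cyclic nucleotides through gap junctions and small cell processes. It stores messenger RNA for its own meiosis and for the first divisions of the embryo, and it directs the cumulus through secreted growth factors. The cumulus is of granulosa origin, and it makes steroids, inhibins and the matrix in which the complex expands before ovulation.

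Values are given as CPM, which are counts scaled to the same library total, further scaled by a factor that edgeR estimates so that most genes do not differ, called normalised CPM below. A difference is given on the log2 scale as oocyte minus cumulus, with its standard error, from edgeR's quasi-likelihood test paired by complex over the 13292 genes whose CPM was over 2 in 10 or more of these 20 libraries. A gene was called when its adjusted p (Benjamini-Hochberg over all genes tested) was under 0.01. CPM describe the make-up of a library, so less RNA per cell and fewer cells cannot be told apart, and a cumulus sample says nothing of the amount per cell. Genes of different length were not compared with each other.

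Oocyte libraries held 9389803 to 29810354 counts and cumulus libraries 1103200 to 8013318, and the oocyte library was the deeper in all 10 complexes (mean difference of the log10 total 0.833 ± 0.174, SD, n = 10, exact sign-flip test, adjusted p = 0.0023). The labelled compartments carried their markers. The 3 oocyte markers with a name, ZP2, ZP3 and DAZL, summed to 2767 to 4576 CPM in oocytes and 0.661 to 66.5 CPM in cumulus samples, the latter highest in complexes 66 and 68. The 11 named cumulus markers summed to 7900 to 18543 CPM in cumulus samples and to 145 to 858 CPM in oocytes. Complex 88 held the highest sum in an oocyte, which was 4.63% of that of its own cumulus, against a median of 1.76% over the 10. Both sums differed between compartments in 10 of 10 complexes (exact sign-flip test, adjusted p = 0.0023 for each, over 6 library values). The unadjusted p, 0.00195, is the smallest that 10 complexes allow. The cumulus samples of complexes 68 and 6 were least like the rest, with median correlations to the other 9 of 0.853 and 0.891, against 0.921 to 0.943 for the remaining 8 and 0.964 to 0.975 for the oocytes. No pair of libraries was a copy.

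**Figure D1:**
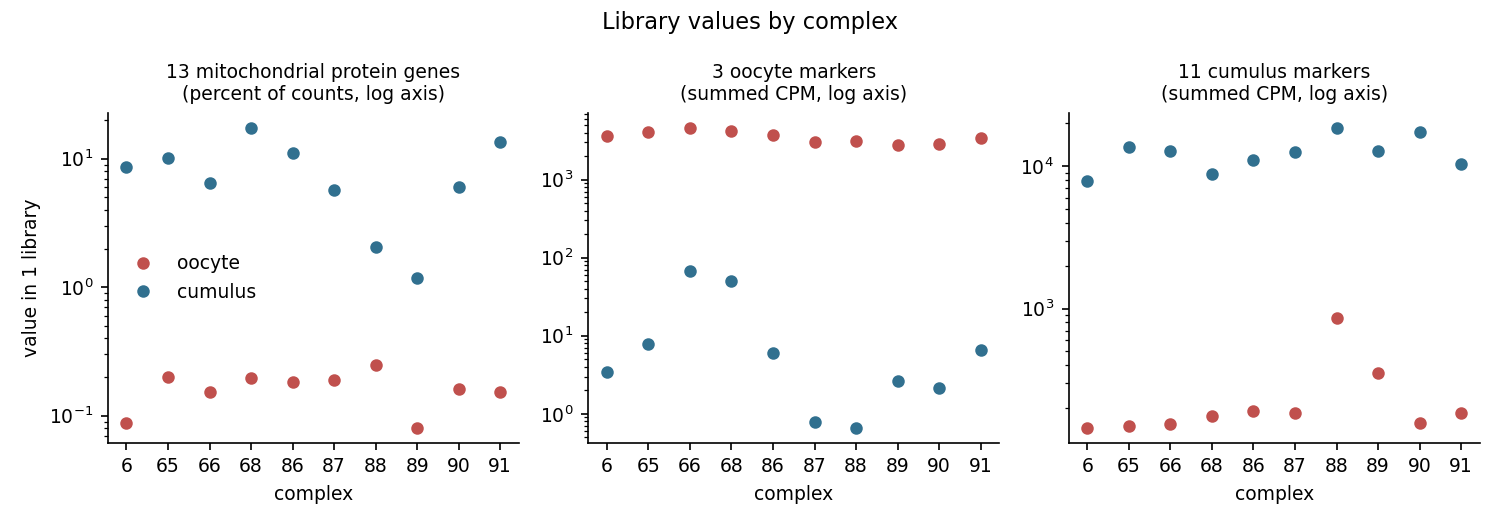
Percent of counts on the 13 protein genes of mitochondrial DNA (left), summed CPM of 3 oocyte markers (middle) and summed CPM of 11 cumulus markers (right), each point 1 library and each axis logarithmic, with complexes along the horizontal axis. Oocytes and cumulus samples lie apart in every panel, and the oocyte of complex 88 holds the highest cumulus marker sum among oocytes, 858 CPM.

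Most genes differed between an oocyte and its own cumulus. Transcript abundance was higher in oocytes for 5649 genes, 42.5% of those tested, and higher in cumulus cells for 4829, or 36.3%, which makes 78.8% in both directions together. Among the calls, 4802 and 4092 had the same direction in all 10 complexes. The differences were large, with 3307 and 2854 genes called at 4-fold or more and 104 and 145 at 256-fold or more. All 10 oocytes lay above all 10 cumulus samples for 4005 genes (30.1%), and the reverse held for 3407 (25.6%). At the other end, 2142 genes (16.1%) had a 95% interval of the difference that lay within 2-fold either way. The edgeR factors presume that most genes do not differ, while 78.8% were called, and the balance of the directions rests on the scaling. With library totals alone, which moved the median difference over all genes from 0.23 to 1.01, 7216 genes were higher in oocytes and 3391 in cumulus cells. Changes given below are relative to the edgeR factors, and a gene called below that loses its call or turns its direction with totals is named as such. The shares of 42.5% and 36.3% are the background to every count of list members below. All list members are genes with a symbol, and among the 4750 such genes tested the shares were 38.2% and 39.6%.

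**Figure D2:**
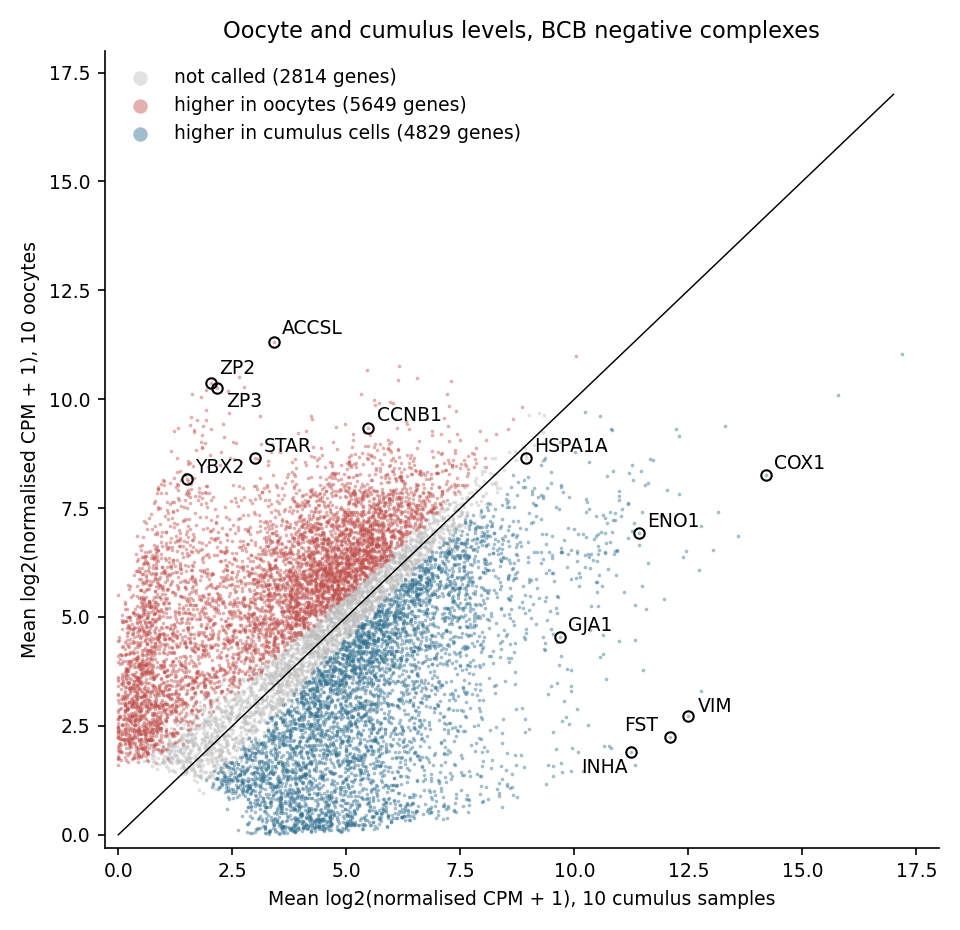
Mean log2(normalised CPM + 1) over 10 cumulus samples (horizontal) and 10 oocytes (vertical), each point 1 of 13292 genes, coloured by the paired edgeR call at an adjusted p under 0.01, with the line of equal levels. ZP2, ZP3 and ACCSL lie far above the line, and FST, VIM, INHA and COX1 far below it.

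The compartments also differed in how counts were spread over genes. The 50 most abundant genes of a library took 7.24% ± 0.824 (SD, n = 10) of an oocyte's counts and 37.7% ± 13.1 (SD, n = 10) of a cumulus sample's, with the cumulus share higher in 10 of 10 complexes (exact sign-flip test, adjusted p = 0.0023). Leaving out the mitochondrial protein genes, these means were 7.25% and 34.4%. A pair of cumulus identifiers without a symbol, ENSBTAG00000043570 and ENSBTAG00000043567, took 18.7% of cumulus counts and 0.461% of oocyte counts, and without them as well the means were 7.005% and 17.5%. Their identifier numbers fall among those of the mitochondrial protein genes, so the 34.4% may still hold mitochondrial counts, which was not tested. When every library was thinned to 1103200 counts, oocytes held 14543 to 15437 genes with at least 1 count and cumulus samples 14416 to 17428. The cumulus number was higher in 5 of 10 complexes, and the difference did not exceed the spread (exact sign-flip test, adjusted p = 0.14). At that depth 9005 genes had a count in all 20 libraries. There were 118 genes with a count in all 10 oocytes and in none of the cumulus samples, and 106 with the reverse, each of which may still be present below this depth. Cumulus samples varied more among themselves than oocytes did. Over the 1762 genes with a mean of at least 50 CPM in both compartments at equal depth, the median SD of log2(CPM + 1) was 0.27 between oocytes and 0.54 between cumulus samples, and 94.7% of these genes had the larger SD in cumulus. On normalised CPM, which takes out shifts of a whole library, the median SDs were 0.27 and 0.40, and 80% of the genes had the larger SD in cumulus.

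Among genes with a symbol, those most in excess in the oocyte began with the genes of the zona pellucida, the glycoprotein coat that sperm bind. ZP2 had a lowest, median and highest level of 1064, 1365 and 1721 normalised CPM in oocytes and of 0, 2.72 and 46.1 in cumulus samples, a log2 difference of 8.83 ± 0.83 (edgeR adjusted p = 3.5e-07). ZP3 stood at 980.2, 1197 and 1648 normalised CPM in oocytes and at 0.244, 1.67 and 57.7 in cumulus samples, with a log2 difference of 8.57 ± 0.82 (edgeR adjusted p = 4.2e-07). For both genes the groups did not overlap, and the highest cumulus values were those of complexes 68 and 66, in that order for ZP2 and the reverse for ZP3, the 2 cumulus samples with the highest oocyte marker sums. ACCSL, which drew the largest mean share of oocyte counts, ranged from 2058 to 3131 normalised CPM in oocytes and from 0 to 248 in cumulus samples (log2 difference 8.14 ± 0.96).

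The other 7 of the 10 largest named excesses were the mineralocorticoid receptor NR3C2 (log2 difference 8.39), the neurofilament light chain NEFL (8.29), the AKT coactivator TCL1A (7.81), the regulator of G protein signalling RGS16 (7.70), the homeobox gene NOTO (7.66), the calcium-activated potassium channel KCNN3 (7.53) and the splicing regulator ESRP1 (7.48). Their levels in oocytes did not overlap those in cumulus samples. TCL1A and NOTO had a median of 0 in cumulus samples, with highest values of 2.96 and 3.82 normalised CPM. NEFL varied most of these among oocytes, from 22.6 to 288 normalised CPM. Leaving out complex 66 raised the log2 difference of NEFL to 9.42, of TCL1A to 8.60 and of ESRP1 to 8.37, and leaving out complex 65 raised that of NOTO to 8.40. Since 4934 of 27607 identifiers could be given a symbol, 73 genes without one stood above the last of these 10, and well-known oocyte genes may be among them.

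Genes of maternal control were described next. Both named members of the maternal effect list were higher in oocytes, TLE6 of the subcortical maternal complex (382, 447 and 547 against 0, 2.68 and 40.8 normalised CPM, lowest, median and highest) and the translational regulator ZAR1L (496, 586 and 824 against 2.87, 16.5 and 40.8). The oocyte TATA-box protein TBPL2 was also higher, by a log2 difference of 6.11 ± 0.59. Of 5 germ line RNA-binding and piRNA genes, 4 were higher in oocytes, where 42.5% of all genes were. YBX2, which holds stored messenger RNA silent, had a log2 difference of 7.38 ± 0.82, the translational regulator DAZL 6.06 ± 0.42, CPEB1, which governs the poly(A) tail in meiosis, 3.36 ± 0.16, and the piRNA protein PIWIL2 3.07 ± 0.35. Without complex 68 TBPL2 and YBX2 moved to 6.84 and 8.23, and without complex 89 DAZL moved to 6.66. TDRD6 was the exception, at 0.152, 1.73 and 5.16 normalised CPM in oocytes and 2.87, 8.3 and 18.5 in cumulus samples, with overlap, and a log2 difference of -2.46 ± 0.54 (edgeR adjusted p = 0.00066). The DNA methyltransferase DNMT1 (1.33) and the dioxygenase TET3 (4.16) were both higher in oocytes, each without overlap.

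Deadenylation genes, whose products shorten poly(A) tails, had 4 of 6 tested members higher in oocytes and 1 higher in cumulus, against 42.5% and 36.3% of all genes. CNOT6L, a catalytic subunit, stood at 226, 267 and 435 normalised CPM in oocytes and 33.7, 84.4 and 99.3 in cumulus samples (log2 difference 1.94 ± 0.17), and CNOT3 had the same difference to 2 decimals with an error of 0.13. The scaffold CNOT1 differed by 0.70 ± 0.11 and PAN3 by 0.87 ± 0.15. CNOT2 had a log2 difference of 0.46 ± 0.15 and missed the threshold (edgeR adjusted p = 0.011), though it was called with DESeq2 and with 7 other settings, among them leaving out complex 6 or 89. The decay factor ZFP36L2 was higher in cumulus by 10.5-fold, and its highest cumulus level, 1572 normalised CPM in complex 87, was far above the cumulus median of 167.

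All 7 tested genes of meiosis and cell cycle control were higher in oocytes, and for each the groups did not overlap, where 42.5% of all genes were higher in oocytes and 30.1% lay there without overlap. The median log2 difference of the list was 2.61, against 0.23 over all genes. CCNB1, the cyclin of the M-phase kinase, was at 507, 641 and 860.4 normalised CPM in oocytes and 9.15, 49.7 and 222 in cumulus samples, a log2 difference of 3.86 ± 0.34 (edgeR adjusted p = 1.1e-07). The inhibitory kinase PKMYT1 differed by 3.29 ± 0.34, the spindle checkpoint protein MAD2L1 by 2.61 ± 0.34, the kinases PLK1 and AURKB by 2.37 ± 0.20 and 1.43 ± 0.17, and FZR1, which activates the anaphase-promoting complex, by 0.77 ± 0.14. SYCE3, of the synaptonemal complex, had a log2 difference of 6.08 ± 0.61 with a median of 0 in cumulus samples, and without complex 66 it moved to 7.66.

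Genes of the division cycle lay on both sides. Of 11 tested, 6 were higher in oocytes and 3 in cumulus, shares not far from the 42.5% and 36.3% of all genes. Higher in oocytes were the replication helicase subunits MCM4 (3.43), MCM3 (2.73), MCM2 (1.34) and MCM5 (0.94), the sliding clamp PCNA (1.85) and the ribonucleotide reductase subunit RRM2 (1.09). Higher in cumulus were CCND2, the D-type cyclin of granulosa cells (0, 0.86 and 23.4 normalised CPM in oocytes against 397, 740.4 and 1256 in cumulus samples, log2 difference -9.40 ± 1.04), its partner CDK4 (-3.61 ± 0.15) and the inhibitor CDKN1B (-0.59 ± 0.13). The last turned to 0.20, not called, with library totals alone. CCND3 and CCNE1 were not called, with log2 differences of -0.57 and 0.81, though CCNE1 was called without complex 65 or 68, at 0.89 and 0.88.

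Among the 10 largest named excesses in cumulus cells were 3 genes of the activin and inhibin system. FST, follistatin, which binds activin, stood at 0, 1.14 and 173 normalised CPM in oocytes and at 2333, 4965 and 6275 in cumulus samples, a log2 difference of -11.12 ± 1.39 (edgeR adjusted p = 5.9e-06). INHA, the inhibin alpha subunit, stood at 0.0798, 0.946 and 120 and 401, 3208 and 4639 normalised CPM (-10.59 ± 1.19), and INHBA, the beta A subunit shared by inhibin and activin, at 0.682, 1.63 and 78.9 and 94.8, 3167 and 5248 (-9.41 ± 1.08). In these 3 genes the highest oocyte value was that of complex 88 and the lowest cumulus value that of complex 6. Without complex 88 the log2 differences were -11.65, -11.07 and -9.87, and how far cumulus RNA in that oocyte library bears on them was not tested.

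GSTA1, a glutathione transferase with close paralogs among which counts may be split, had the largest difference of all named genes, -11.25 ± 1.37, from 0.98 to 3142 normalised CPM in the medians. The intermediate filament VIM (-10.95), the proteoglycan core SRGN (-10.15), the collagen lysyl hydroxylase PLOD2 (-9.91), the pseudokinase TRIB2 (-9.87), the secreted protein RARRES2 (-9.49) and IHH, the Indian hedgehog ligand (-9.45), completed the 10. None of these groups overlapped, and 6 genes without a symbol stood above the last of them.

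The size of these differences moved with the run of complex numbers, which no label calls a batch. Oocytes 65, 66 and 68 held 0 to 0.0798 normalised CPM of GSTA1 and 0 to 0.341 of FST, and oocytes 86 to 91 held 0.329 to 66.9 and 0.539 to 173. In complexes 86 to 91 alone the log2 differences were -9.23 for GSTA1, -8.95 for FST, -9.03 for INHA and -8.63 for INHBA, and all of the 10 lay nearer to 0 than over the 10 complexes, from -9.23 to -7.86. In complexes 65 to 68 alone all of the 10 lay further from 0, INHBA at -11.39 and the others beyond it, where single genes had as few as 0 counts over the 3 oocytes, so that the fitted values are no bounds. The 10 largest excesses of the oocyte moved the other way, to 8.08 to 10.39 in complexes 86 to 91 and 4.89 to 6.37 in complexes 65 to 68. Summed oocyte markers were at 7.87 to 66.5 CPM in cumulus samples 65 to 68 and 0.661 to 6.47 in 86 to 91, and summed cumulus markers at 150.3 to 177 CPM in oocytes 65 to 68 and 158 to 858 in 86 to 91. The part of these in the differences between runs was not tested, nor were those differences. Of 185 called genes of the lists and of the largest differences, 74 moved by over 1.5-fold in 1 of the runs alone, and 0 changed sign.

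**Figure D3:**
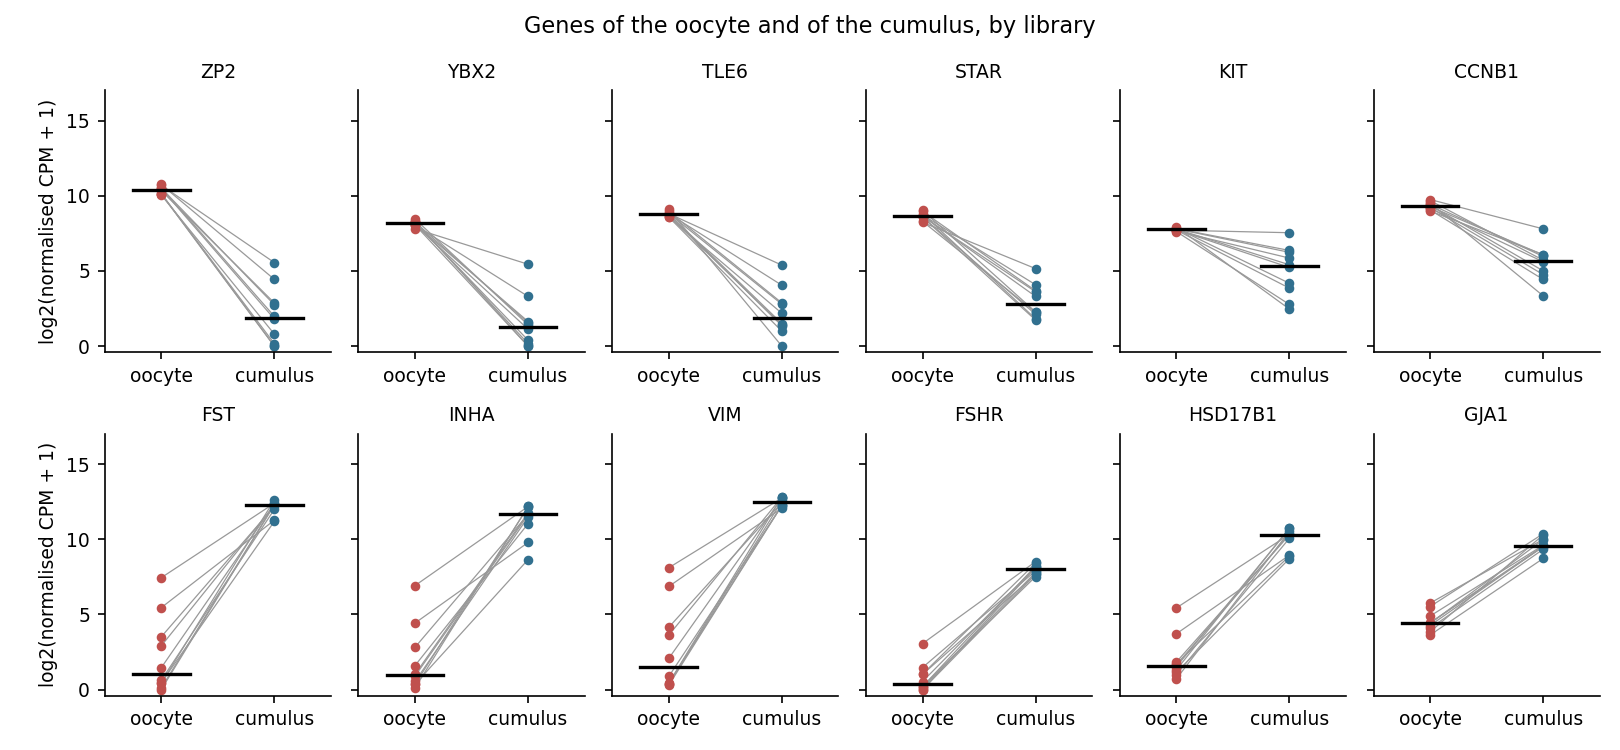
Levels of 12 genes as log2(normalised CPM + 1) in each oocyte (red) and each cumulus sample (blue), with a line joining the libraries of 1 complex and a bar at the median. The groups do not overlap in any panel, and the highest oocyte points of FST, INHA and VIM belong to complex 88.

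Granulosa identity genes followed, with 16 of 19 higher in cumulus, 1 higher in oocytes and a median log2 difference of -6.19, where 36.3% of all genes were higher in cumulus. These counts were 14 and 2 with library totals alone. The receptor for follicle-stimulating hormone FSHR ranged from 0 to 7.34 normalised CPM in oocytes and from 183 to 366 in cumulus samples (log2 difference -8.78 ± 0.70). The transcription factors FOXL2 (-7.76), GATA6 (-8.26), GATA4 (-6.19), NR5A2 (-6.86) and NR5A1 (-4.62) were all higher in cumulus. So were the steroid enzymes CYP11A1 (-8.82), HSD17B1 (-8.65), HSD3B1 (-6.48) and the aromatase CYP19A1, whose levels of 7.49, 109.7 and 196 normalised CPM in cumulus samples overlapped those in oocytes, 1.88, 4.17 and 10.1. ESR2 and IGF1R differed less, by -0.85 ± 0.16 and -1.92 ± 0.16, and ESR2 lost its call with library totals alone, at -0.06. Without complex 88 the difference of CYP11A1 moved to -9.43.

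STAR went against this list. It codes for the protein that brings cholesterol to the inner mitochondrial membrane, and it stood at 299.7, 401 and 521 normalised CPM in oocytes against 2.32, 6.35 and 34.6 in cumulus samples. Every oocyte was above every cumulus sample, and the log2 difference was 5.81 ± 0.44 (edgeR adjusted p = 3.0e-08), in the opposite direction to CYP11A1, the enzyme that uses the cholesterol it delivers. IGFBP2 and NR2F2 were not called, at 1.61 ± 0.61 and -0.37 ± 0.20, and AMHR2 was under the filter on low counts. Without complex 89 IGFBP2 was called, at 2.05 (edgeR adjusted p = 0.003).

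Genes by which the compartments signal to each other lay on both sides. KIT, the oocyte receptor for a ligand of the granulosa, was at 196, 217 and 244 normalised CPM in oocytes and 4.52, 39.1 and 185 in cumulus samples (log2 difference 2.74 ± 0.51, edgeR adjusted p = 0.00021). The list of growth factor receptors and transducers also holds inhibin subunits and antagonists. Of its 9 tested members, 6 were higher in cumulus and 1 in oocytes, against 36.3% and 42.5% of all genes. The latter was BMPR1B, a receptor for bone morphogenetic proteins, at 119, 143 and 171 normalised CPM in oocytes and 11.5, 25 and 94.8 in cumulus samples (2.15 ± 0.30). The common transducer SMAD4 (-3.17 ± 0.21), the inhibitory SMAD6 (-3.05 ± 0.24) and the antagonist GREM1 (-1.50 ± 0.30) were higher in cumulus, beside FST, INHA and INHBA. GREM1 lost its call with library totals alone, at -0.72. FGFR1 and BAMBI were not called, and SMAD7 and SMAD9 were under the filter. No member of the list of oocyte growth factors had a symbol here.

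The contact between the compartments was represented by GJA1, connexin 43, which stood at 11.4, 20.4 and 52.9 normalised CPM in oocytes and 422, 762 and 1322 in cumulus samples (log2 difference -5.22 ± 0.21). The tight junction scaffold TJP1 was higher in oocytes by 1.47 ± 0.17. CTNNB1 was higher in cumulus by 1.62-fold, but with library totals alone its log2 difference was 0.10 and not called. Both genes of matrix and expansion, the proteoglycan VCAN (-6.61 ± 0.28) and the receptor EGFR (-3.44 ± 0.17), were higher in cumulus without overlap, against 36.3% called and 25.6% without overlap among all genes. Of 7 basement membrane and matrix genes 4 were higher in cumulus and 1 in oocytes, against 36.3% and 42.5% of all genes. COL4A3 (-7.98), COL6A2 (-7.91), LAMB2 (-6.64) and the protease inhibitor TIMP2 (-4.90) were those higher in cumulus, and the laminin chain LAMA5 was higher in oocytes (2.42 ± 0.45). COL1A2 and LAMB1 were not called, the first at 1.66 ± 0.67, and without complex 68 it was called at 2.14 (edgeR adjusted p = 0.0032). LAMB1 had its highest cumulus level, 199.7 normalised CPM, in complex 6 against a cumulus median of 19.7, and without that complex it was called higher in oocytes at 0.81 (edgeR adjusted p = 0.0028).

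Cyclic nucleotides hold the oocyte in meiotic arrest, and the 9 tested genes of their control were divided, with 6 higher in cumulus and 2 in oocytes, against 36.3% and 42.5% of all genes. NPR2, the granulosa receptor for natriuretic peptide that makes cyclic GMP, was higher in cumulus by -1.39 ± 0.25, with overlap. The soluble guanylate cyclase subunit GUCY1B1 (-2.85), the guanine nucleotide enzyme IMPDH2 (-1.31), the adenylate cyclase ADCY6 (-2.06), the stimulatory G protein GNAS (-1.88) and the kinase subunit PRKAR2B (-8.11) were also higher there. Another subunit of the same kinase, the catalytic PRKACB, was higher in oocytes, at 79.6, 109 and 126 normalised CPM against 28.4, 38.4 and 56.9 (1.31 ± 0.14). The phosphodiesterase PDE3B was higher in oocytes too (3.54 ± 0.57). NPR2 and IMPDH2 kept their sign with library totals alone, at -0.60 and -0.51, and were no longer called.

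Of the pentose phosphate pathway, PGLS and PGD were described, and they lay on opposite sides. The lactonase PGLS was higher in cumulus (-1.04 ± 0.14), at 34.6, 38.4 and 50.4 normalised CPM in oocytes against 52.4, 88.1 and 110.2 in cumulus samples, and the groups did not overlap. PGD, which acts on the product of PGLS, was higher in oocytes, at 326, 348 and 387 normalised CPM against 104, 164 and 291 in cumulus samples (1.06 ± 0.15, edgeR adjusted p = 1.5e-05), again without overlap. With library totals alone, PGD kept its call at 1.85, and PGLS lost its call at -0.25.

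Of 14 tested genes of glycolysis and lactate, 12 were higher in cumulus, where 36.3% of all genes were, and 1 in oocytes, with a median log2 difference of -2.90. ENO1, enolase, stood at 84.9, 116 and 217 normalised CPM in oocytes and 723, 3006 and 5333 in cumulus samples (-4.52 ± 0.35, edgeR adjusted p = 2.7e-08). The phosphofructokinases PFKL (-6.97 ± 0.54) and PFKP (-5.75 ± 0.40) and the glucose transporter SLC2A3 (-6.70 ± 0.63) differed most. PGK1 (-5.70), PKM (-2.85), PGAM1 (-2.37), ALDOC (-2.78), the transporter SLC2A1 (-2.95) and the lactate exporter SLC16A3 (-4.13) followed. HK1 and GPI, which act before phosphofructokinase, differed least among the 12, by -0.73 ± 0.18 and -1.06 ± 0.21, with overlap. With library totals alone HK1 moved to 0.06 and GPI to -0.27, and 10 members were called higher in cumulus. The glucose transporter SLC2A8 was higher in oocytes in 10 of 10 complexes (1.08 ± 0.19). SLC16A1, which carries lactate and pyruvate, was not called, with a log2 difference of 0.07 and a 95% interval of -0.44 to 0.58.

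**Figure D4:**
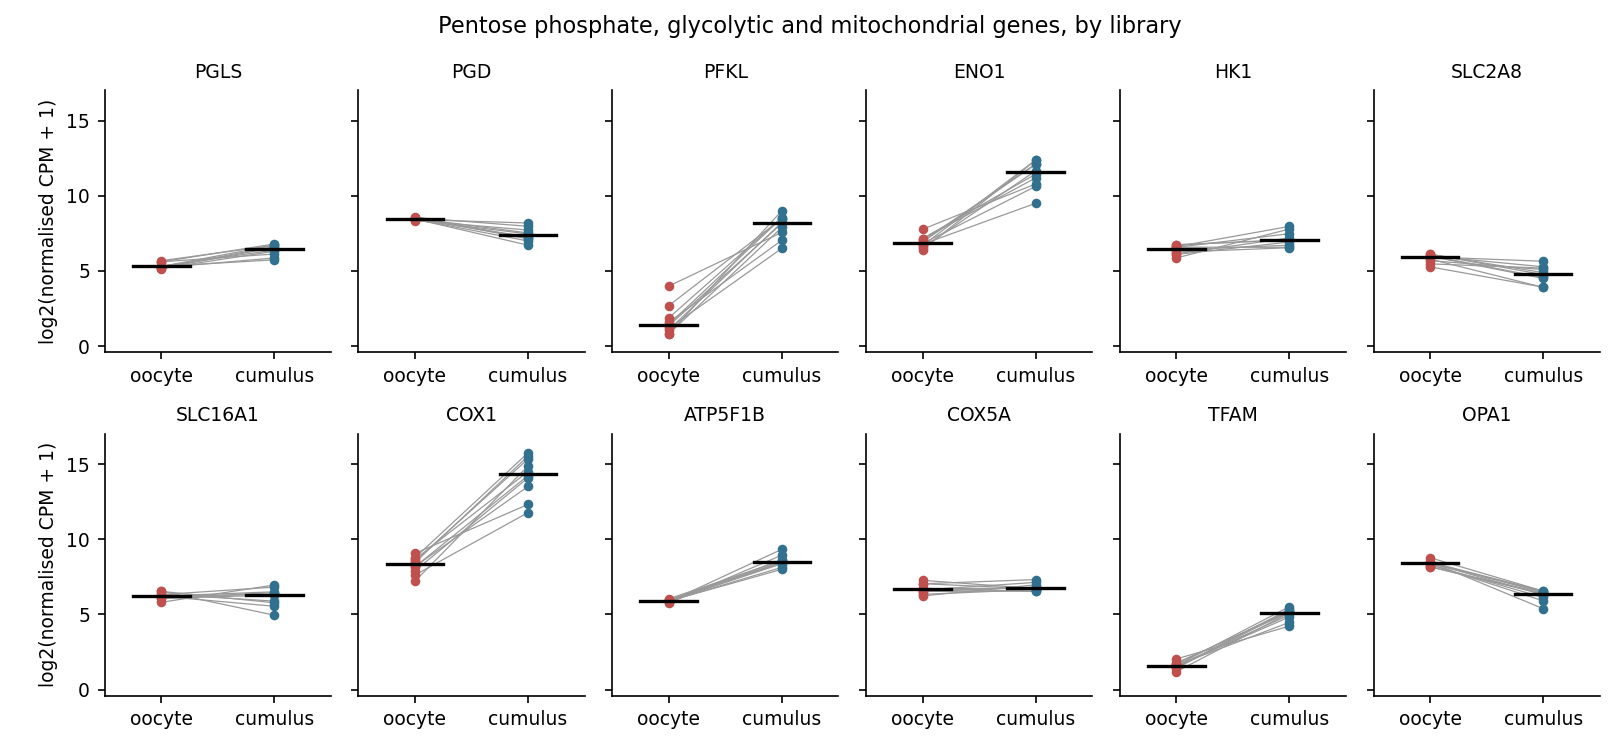
Levels of 12 metabolic genes as log2(normalised CPM + 1) in each oocyte (red) and each cumulus sample (blue), with a line joining the libraries of 1 complex and a bar at the median. PGLS, PFKL, ENO1, COX1, ATP5F1B and TFAM are higher in every cumulus sample than in any oocyte, PGD and OPA1 are lower, and HK1, SLC2A8, SLC16A1 and COX5A overlap.

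Transcripts of mitochondrial DNA lay furthest to the cumulus side by median, among the lists of function with at least 3 tested members. All 13 protein genes were higher in cumulus without overlap, where 36.3% of all genes were called and 25.6% did not overlap in that direction, with log2 differences from -7.01 to -5.74. Together they took 1.17% to 17.4% of the counts of a cumulus sample, with a median of 7.59%, and 0.0805% to 0.247% of those of an oocyte (exact sign-flip test, adjusted p = 0.0023). COX1, which drew the most counts of the 13 in cumulus samples, stood at 148, 321 and 533 normalised CPM in oocytes and at 3509, 21282 and 55155 in cumulus samples (-6.00 ± 0.46). Cumulus samples spread over more than a factor of 10, lowest in complexes 89 and 88 and highest in complex 68, whose cumulus libraries were the deepest, the third deepest and the shallowest. The part of depth in this spread was not tested. Nuclear copies of mitochondrial genes may share some of these counts.

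Nuclear genes of the respiratory chain moved in the same direction but by less. Of 22 tested, 18 were higher in cumulus and none in oocytes, with a median log2 difference of -1.12, where 36.3% of all genes were called higher in cumulus. The ATP synthase subunits ATP5F1B (-2.66 ± 0.15) and ATP5F1D (-2.24 ± 0.12), cytochrome c1 CYC1 (-2.45 ± 0.15), UQCR11 (-4.54 ± 0.21), SDHA (-1.65 ± 0.18) and COX4I1 (-1.69 ± 0.13) were higher in every cumulus sample than in any oocyte. The 4 members that were not called were COX5A, UQCRC2, NDUFA6 and NDUFV3, the first with a 95% interval of -0.43 to 0.19. With library totals alone, 9 members were higher in cumulus and 3 in oocytes, so the list's count depends on the scaling, while the 6 examples kept their direction at -0.85 to -3.74.

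Genes that build and shape mitochondria were divided. TFAM, which packages and transcribes mitochondrial DNA, was at 1.29, 2.01 and 3.11 normalised CPM in oocytes and 17.7, 33.9 and 44.9 in cumulus samples (-3.97 ± 0.24, edgeR adjusted p = 1.5e-09). The fission adaptor FIS1 was also higher in cumulus (-2.30 ± 0.14). The fusion proteins OPA1 and MFN2 were higher in oocytes, by 2.14 ± 0.14 and 1.44 ± 0.16, as was the mitochondrial helicase TWNK (0.86 ± 0.17). MFN1, PHB and the mitochondrial RNA polymerase POLRMT were not called, the last with an interval of -0.50 to 0.97.

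Of 7 genes of cholesterol supply, 4 were higher in cumulus, on so short a list not far from the 36.3% of all genes. These were the lipoprotein receptor SCARB1 (0, 0.866 and 5.71 normalised CPM in oocytes and 63.2, 115 and 168 in cumulus samples, -6.87 ± 0.59) and the synthesis enzymes MVD (-1.92), DHCR7 (-1.60) and LSS (-1.50). HMGCS1, which acts early in the pathway, was higher in oocytes (1.63 ± 0.27) without overlap. The regulator SREBF2 was not called at -0.63 ± 0.24, and 9 of 10 complexes had the higher level in cumulus, with complex 6 the other way. Without that complex it was called, at -0.83 (edgeR adjusted p = 0.0002). Among 5 amino acid and zinc transporters, SLC3A2 (1.88) and SLC30A1 (0.81) were higher in oocytes and SLC7A5, the partner of SLC3A2 in a leucine carrier, SLC39A11 and SLC39A13 were higher in cumulus (-3.38, -4.25 and -0.80). SLC39A13 lost its call with library totals alone, at -0.0095, and with no filter on low counts, at -0.45. The call of SLC30A1 was lost without complex 66, 87 or 90, at 0.76, 0.74 and 0.75.

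Proteasome subunits differed by little. Of 16 tested, 11 were higher in cumulus, against 36.3% of all genes, and 2 in oocytes, with a median log2 difference of -0.83 and a range of -2.77 to 0.90. With library totals alone 4 were called each way. PSMB9, a subunit of the immunoproteasome, differed most (-2.77 ± 0.31). PSMA5 and PSMD1 were those higher in oocytes (0.90 ± 0.13 and 0.45 ± 0.14), and PSMD1 fell short of the threshold when any of 8 complexes was left out. PSMD14 had a log2 difference of -0.03 with an interval of -0.33 to 0.28.

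Early response genes, which cells also switch on while they are taken apart by enzymes, were higher in cumulus in 11 of 16 cases, against 36.3% of all genes. FOS stood at 0.638, 3.6 and 39.6 normalised CPM in oocytes and 357, 832 and 2480.1 in cumulus samples (-7.75 ± 0.87), EGR1 at 5.99, 13.6 and 33.2 and 290.5, 764 and 3234 (-6.13 ± 0.53), and JUN at 19.5, 46.2 and 104 and 789.7, 1302 and 4078 (-4.96 ± 0.28). The small heat shock gene HSPB1 had a log2 difference of -7.45 ± 0.38. KLF2 was the exception, higher in oocytes by 4.99 ± 0.50. DNAJB1, GADD45A and HSPA1L were not called, and EGR2 and EGR3 were under the filter. How far the separation of the complexes with trypsin bears on these levels was not tested.

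The heat shock gene HSPA1A was not called over the 10 complexes (-0.31 ± 0.55, edgeR adjusted p = 0.6), and its direction was split by complex number. In complexes 65, 66 and 68 it was at 209.9 to 282 normalised CPM in oocytes and 62.9 to 140.1 in cumulus samples. In complexes 86 to 91 it was at 396 to 613 in oocytes and 672 to 4569 in cumulus samples, and in complex 6 at 494 and 148. The fits of the first 3 and of the last 6 alone gave log2 differences of 1.57 and -1.52 (edgeR adjusted p = 0.00079 and 0.0026). The difference between these runs of numbers was not tested, no label says that a run is a batch, and near-identical copies of this gene may share its counts.

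Of 6 apoptosis genes, 5 were higher in cumulus, against 36.3% of all genes, and 1 in oocytes. The death receptor FAS stood at 0, 0.0461 and 0.992 normalised CPM in oocytes and 24.2, 39.3 and 44.9 in cumulus samples (-7.65 ± 0.68). MCL1 (-1.86), BAK1 (-2.32), BAD (-1.35) and BAX (-0.98) followed, of which BAD and BAX were not called with library totals alone, at -0.56 and -0.20. The pro-apoptotic BCL2L11 was higher in oocytes (2.24 ± 0.44) in 9 of 10 complexes.

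**Figure D5:**
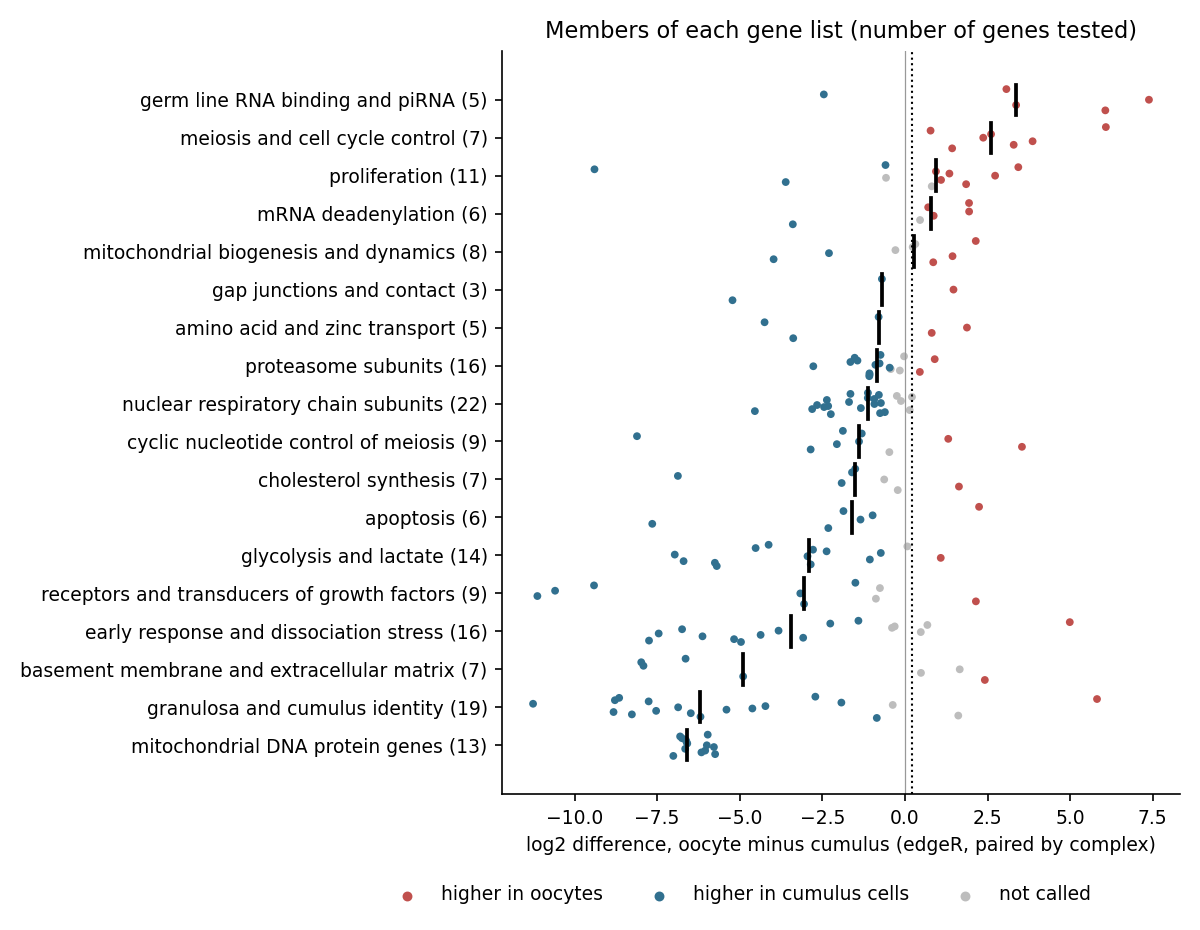
Log2 difference, oocyte minus cumulus, of every tested member (points) of each gene list with 3 or more tested members, marker lists left out, coloured by its call, with a bar at the list's median and a dotted line at 0.23, the median of all 13292 genes. Among the lists drawn, that of mitochondrial DNA genes has the lowest median, -6.59, and that of germ line RNA binding the highest, 3.36.

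Markers of other cells of the follicle were sought in both compartments. The 3 named endothelial markers, TEK, VWF and TIE1, summed to 106.3 to 175 CPM in oocytes and 1.39 to 32.6 CPM in cumulus samples, and each was higher in oocytes, where 42.5% of all genes were. Without complex 68 the log2 difference of TIE1 moved from 3.45 to 4.21. TEK stood at 50.2, 65.8 and 80.5 normalised CPM in oocytes and 0.366, 2.17 and 19.5 in cumulus samples (4.73 ± 0.43). The haemoglobin gene HBA was not called (-1.82 ± 0.66, edgeR adjusted p = 0.021) and stood at 229, 179 and 176 normalised CPM in the cumulus samples of complexes 66, 86 and 68, against 2.50 to 44.3 in the other 7. It was called higher in cumulus with DESeq2, and without complex 88 at -2.15 (edgeR adjusted p = 0.0047). Near-identical copies of HBA may share its counts. Markers of leukocytes and of theca had no symbol here and were not analysed.

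Whether the difference between compartments depended on the BCB class was tested over all 19 complexes, and 2 of 13865 genes (0.0144%) passed an adjusted p under 0.01, with 2009 at an unadjusted p under 0.05. No BCB positive complex was numbered 86 to 91, and within 65 to 74 the BCB negative numbers all came before the positive ones. Class and run of complex numbers therefore cannot be fully told apart. DKK3, a secreted relative of the Dickkopf WNT inhibitors, was at 72.2, 96.4 and 118 CPM (lowest, median and highest, on library totals) in BCB negative oocytes and 71.7, 85.4 and 112 in BCB positive ones. In cumulus samples it was at 2.72, 15.0 and 41.9 CPM when BCB negative and at 0.215, 0.959 and 2.51 when BCB positive, without overlap. Its log2 compartment difference was 1.83 ± 0.30 in BCB negative and 6.36 ± 0.30 in BCB positive complexes, each from a fit of that class alone. The joint fit of both classes, with its own scaling factors, put the difference between classes at -4.48 ± 0.46 (edgeR adjusted p = 2.4e-05).

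The second gene was TRPS1, a repressor of GATA targets. It was at 73.1, 96.0 and 148 CPM in BCB negative cumulus samples and 58.8, 64.9 and 88.9 in BCB positive ones, and at 6.91, 8.27 and 14.8 CPM in BCB negative oocytes and 9.34, 12.9 and 20.3 in BCB positive ones. Its compartment difference was -4.22 ± 0.20 and -2.53 ± 0.13, in the fits of each class alone, and the joint fit put the difference between classes at -1.63 ± 0.23 (edgeR adjusted p = 0.0023). In complexes 65 to 74 alone TRPS1 was not called, at -1.86 (edgeR adjusted p = 0.019), while DKK3 was, at -4.25 (edgeR adjusted p = 0.0081). The next 3 genes missed the threshold, an identifier without a symbol, ENSBTAG00000020661, BASP1 and TMCC3, at adjusted p of 0.013, 0.027 and 0.032 in edgeR. All 3 passed it with DESeq2 and with library totals alone, and of them only TMCC3 did in complexes 65 to 74 alone. Like DKK3, these 3 were higher in oocytes, by 1.48, 4.67 and 6.24 in BCB negative and by 5.57, 7.68 and 9.74 in BCB positive complexes. The summed oocyte markers moved with them. They were at 0.661, 4.68 and 66.5 CPM in BCB negative cumulus samples and at 0.108, 0.555 and 1.82 in BCB positive ones, whose libraries were deeper, at 3585944 to 10430148 counts. Relative to the same complex's oocyte, DKK3 in BCB negative cumulus was at a median of 15.8% and the oocyte markers at 0.128%. In BCB positive cumulus these medians were 0.997% and 0.0164%. The part of oocyte RNA in cumulus samples in these results was not tested. None of 201 list members passed the test at that threshold. The mitochondrial genes were further to the cumulus side in BCB negative complexes by a log2 value of -2.89 to -2.34, at adjusted p of 0.045 to 0.12 in edgeR. The count of 2 genes was not stable, with 181 in DESeq2, of which 169 lay further to the cumulus side in BCB negative complexes, and 279 with library totals alone, of which 262 lay further to the oocyte side.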

How the data were processed

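Complexes were aspirated from antral follicles of abattoir ovaries and stained, and RNA of each oocyte and of its cumulus cells was copied from the poly(A) tail with template switching, amplified and made into Nextera libraries for paired-end sequencing. The notes of the submitters name HISAT2 2.1.0, featureCounts 1.6.0 and ARS-UCD1.2, and duplicates were removed. No molecular identifiers are stated. The deposited values are raw counts per Ensembl gene, which the authors left without normalization, 27607 identifiers in 1 table for each compartment. Amplified reads are not independent molecules, so intervals on counts cover less than the whole error.

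Groups and pairs were taken from the labels, which give both libraries of a complex the same number and so pair them. The correlation of the deviations of an oocyte and its own cumulus from the compartment means ran from -0.02 to 0.14, and the own cumulus ranked highest for 5 of 10 oocytes. Tests used edgeR 4.0.16 in R 4.3.3 (TMM factors, quasi-likelihood F-test, complex as a block), with DESeq2 1.42.0 as an alternative. TMM factors were 1.29 to 1.35 in oocytes and 0.511 to 1.02 in cumulus samples. The standard error is the log2 difference divided by the square root of F, and 95% intervals use 9 degrees of freedom. The BCB class test added the interaction of class and compartment over 13865 genes. Library values were compared with an exact two-sided sign-flip test over 1024 sign changes, with adjustment over 6 values. Python 3.11.15, numpy 2.4.6, pandas 2.3.3, scipy 1.17.1 and matplotlib 3.10.9 did the rest.

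Both tests were tested on counts simulated from these libraries with known changes, of which the interaction missed a larger share than the paired test did. Symbols came from identifier pairs in the supplements of the study, for 4934 identifiers (4750 of the genes tested), and they favour genes of the study's own BCB tables. Coordinates and sequences were not used here, and 1 gene that this rule also names is not reported here. Named were, for each list, up to 6 members with the highest mean and any called against the list, the 10 largest differences in each direction among named genes called in all 10 complexes with a mean of at least 100 CPM in the higher compartment, and the 5 genes with the lowest p between BCB classes. Further list members, and genes with the highest counts, were picked with their values in view. The members and gene lists were chosen with earlier results of these data known. Alternatives were no block, DESeq2, library totals, DESeq2 size factors, other filters and thresholds, no mitochondrial protein genes, oocytes thinned to the depth of their cumulus, each complex left out, and runs of complex numbers alone.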

Additional observations from a re-analysis of the deposited data

Results flagged for a closer look

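Over the 10 complexes, 225 sets of values (the log2(normalised CPM + 1) differences of list members and of the largest differences and the library values of each compartment) were searched for 1 value far from the rest, with a gap to the nearest of over 0.466 of the range. This was met by 18 sets, and chance gives about 1 in 20. Complexes 68, 6, 88 and 90 account for 15 of them.

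Complex 68, with the shallowest cumulus library and the 1 least like the others, had the lowest difference for TBPL2, 2.06 against 4.02 to 5.31 elsewhere, and the highest for OPA1, 3.11 against 1.75 to 2.43, and for SLC39A11, -0.44 against -3.98 to -2.68. It also had the lowest for CCND3, -2.06 against -1.06 to 0.03. Its cumulus level of SLC39A11 was 1.77 normalised CPM, near the floor of that library. Complex 6 had the highest difference for GPI, 0.68 against -1.90 to -0.54, and for SREBF2, 1.63 against -1.82 to -0.09, and the lowest for LAMB1, -2.91 against -0.36 to 1.67. Its difference for the lactate exporter SLC16A3 was 1.32 against -5.91 to -2.78, with a cumulus level of 0.832 normalised CPM, near the floor. The oocyte of complex 88 held 858 CPM of cumulus markers against 145 to 354 in the other oocytes, and that complex had the highest difference for GATA6, -4.21 against -7.83 to -6.40. Complex 90 had the lowest difference for 4 proteasome genes, PSMB7 (-2.53), PSMB6 (-2.77), PSMC2 (-1.90) and PSMD14 (-0.92), and for UQCRC2 of the respiratory chain, -1.49 against -0.57 to 0.36. Single values were the difference of ZFP36L2 in complex 87, -6.26, of CNOT1 in complex 86, 1.196, and of JUND in complex 91, -2.73.

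In 2 genes the compartment difference differed between BCB classes by the interaction test of edgeR. The difference in BCB negative minus that in BCB positive complexes was -4.48 for DKK3 and -1.63 for TRPS1.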

How the results depend on the processing

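The counts of genes higher in oocytes and in cumulus cells stayed within 1.5 times of 5649 and 4829 in most settings. Requiring a CPM above 2 in all 20 libraries left fewer genes to test and gave 3138 and 3048, and complexes 65 to 68 alone gave 3657 genes higher in oocytes. Leaving out 1 complex at a time gave 5474 to 5654 and 4668 to 4831. Without the replicate block that pairs the libraries of a complex, the counts were 5679 and 5034, 6 genes gained a call, SREBF2 (-0.67), PSMD2 (-0.47), HBA (-2.77), FGFR1 (-1.24), BAMBI (-1.94) and CCNE1 (0.75), and 3 that were not called reversed, LAMB1 (-0.20), SLC16A1 (-0.0056) and GADD45A (-0.16). The block changed no other call among the 213 genes of the lists and of the largest differences. PSMD2 was also called without complex 6, at -0.52. Thinning the oocytes to the depth of their cumulus gave 5132 and 5136.

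The number of genes whose difference depended on BCB class, 2, rose to 279 with library totals alone, to 181 with DESeq2 and to 160 in complexes 65 to 74 alone. The cause was not tested.

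Of the library values, the number of genes with a count changed direction with depth, from -576 at equal depth to 1594 in favour of oocytes at deposited depth, where oocytes are deeper. With 1 complex left out the 6 mean differences ran from 0.807 to 0.862 (log10 total), -717 to -319.6 (genes), -8.85 to -7.06 (percent mitochondrial), -32.5 to -27.8 (percent on 50 genes), 3424 to 3618 and -12835 to -11732 (CPM of oocyte and cumulus markers). In complexes 65 to 68 alone, where the smallest p is 0.25, the values 0.875, -11.2, -40.9, 4256 and -11578 kept their direction and missed the threshold by design.

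Of these 213 genes, library totals alone reversed 24. Called in the reported test were CDKN1B (0.20), CTNNB1 (0.10), PSMB5 (0.0356), HK1 (0.0625), NDUFA2 (0.0582), NDUFA13 (0.18), NDUFV1 (0.0028), UQCRB (0.0402), PSMC2 (0.055) and PSMD4 (0.34), and not called there were SREBF2 (0.16), MFN1 (0.50), PSMD2 (0.37), PSMC1 (0.64), HSPA1A (0.49), FGFR1 (0.0175), CCND3 (0.20), NR2F2 (0.41), IMPDH1 (0.30), EBP (0.57), UQCRC2 (0.55), COX5A (0.67), PSMD14 (0.77) and DNAJB1 (0.42). Of those not called, PSMC1, COX5A and PSMD14 passed the threshold with totals, higher in oocytes. A further 19 lost their call and kept their sign, and 11 gained one with the same sign, CNOT2 (1.24), LAMB1 (1.26), PHB (1.12), CCNE1 (1.59), IGFBP2 (2.45), COL1A2 (2.41), SLC16A1 (0.86), NDUFA6 (0.93), NDUFV3 (1.00), POLRMT (1.01) and HSPA1L (1.41). With no filter 15 lost their call, among them CDKN1B (-0.24), CTNNB1 (-0.35), BAX (-0.63), ESR2 (-0.50) and HK1 (-0.38), and 5 gained one. The reversals that follow were of genes not called over the 10 complexes. No filter reversed MFN1 (0.058), PSMC1 (0.19), HSPA1A (0.0441), EBP (0.13), UQCRC2 (0.10), COX5A (0.23) and PSMD14 (0.32). Complexes 65 to 68 alone reversed MFN1 (0.12), HSPA1A (1.57), FGFR1 (0.62), BAMBI (0.34), COL1A2 (-0.30), SLC16A1 (-0.23), UQCRC2 (0.13), COX5A (0.22), POLRMT (-1.06), PSMD14 (0.14) and DNAJB1 (0.84), and 35 others lost their call there. In that run 3 genes kept their sign and gained a call, SREBF2 (-1.24), IGFBP2 (2.79) and GADD45A (1.97). DESeq2 size factors reversed PSMC1 (0.0016), COX5A (0.0355) and PSMD14 (0.13), DESeq2 COX5A (0.0298) and PSMD14 (0.12), thinning SLC16A1 (-0.13) and NDUFA6 (-0.0286), complexes 86 to 91 alone NDUFA6 (-0.0446) and NDUFV3 (-0.0063), and a CPM above 2 in all libraries PSMD14 (0.0297). With 1 complex left out, SLC16A1 ran from -0.0815 to 0.21, reversing without 6 or 87 (-0.0094), and PSMD14 from -0.0775 to 0.0737, reversing without 89 (0.011) or 90. Complexes 86 to 91 alone lost the calls of 6 genes, RRM2 and HK1 among them. Of list counts, 973 of 1040 values under other settings were within 1.5 times of the main value. Depth limits low genes in the smaller cumulus libraries, where 1 count is close to 1 CPM.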

Other observations

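By mean CPM, 3 of the 50 genes with the most counts were the same in both compartments, and 12 of those of the cumulus and 0 of those of the oocyte were mitochondrial protein genes. The identifiers with the most counts in cumulus samples, ENSBTAG00000043570 and ENSBTAG00000043567, have no symbol here and took 135257 ± 73446 and 51617 ± 29561 CPM (SD, n = 10), against 2996 ± 1094 and 1611 ± 782 in oocytes. In oocytes they ranked 2 and 15, so both were also among the 50 of that compartment. Their identifier numbers fall among those of the mitochondrial protein genes. Both identifiers were chosen after their values were seen. In oocytes the ubiquitin gene UBB held 2792 ± 807 CPM against 884 ± 490.1 in cumulus samples, and EZR, which links the cell membrane to actin, 1826 ± 234 CPM against 123 ± 36.7.

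At deposited depth, 173 genes had a count in all 10 oocytes and in no cumulus sample. The reverse held for 1 identifier, ENSBTAG00000053855, with 1 to 7 counts in each cumulus library, near the limit of 3 counts that a count of 0 allows in a library.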
